A study of Rattus norvegicus with 6 samples.

Results

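The choroid plexus epithelium genes are 35 genes for the secreted proteins, transporters and channels, junction proteins, keratins and transcription factors of the epithelium that makes cerebrospinal fluid. They were a fixed list of symbols, chosen with earlier results of these data known, and all 35 were among the 35362 symbols of the messenger RNA table. Both RNA-seq libraries came from the hippocampus of Sprague-Dawley rats, aged 7 weeks per the labels. The B[a]P library came from the arm given benzo[a]pyrene, a combustion product of the polycyclic aromatic hydrocarbon class, by daily gavage in corn oil at 2.0 mg/kg for 7 weeks, and the control library from the arm given corn oil alone. The labels do not say how many rats went into a library, or whether the age is that at the start or the end of the gavage. Each condition had 1 library, so no value below has a replicate check, no test was made, and each difference is one between 2 libraries and not between conditions.

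The choroid plexus lies in the brain ventricles, and in the lateral ventricle it is attached beside the hippocampus. Its epithelial cells form a sheet sealed by tight junctions over leaky capillaries. They take up ions and bicarbonate at the blood side and release them with water on the ventricle side, and they secrete carrier proteins into the fluid. In bulk tissue, fewer cells of a type and less RNA per cell cannot be told apart.

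The 35 genes were lower in the B[a]P library in 35 of 35 cases. Levels are in FPKM, a read number scaled to the length of the gene and the size of the library. Paired values name the B[a]P library first and the control library after it, and a fold is their plain ratio. The fold ranged from 1.14 for Car12 to 57.6 for Slco1a5, with a median of 8.92. Their levels summed to 160.6 against 3699.3 FPKM, and without Ttr to 100.2 against 399.1 FPKM. Most of the summed difference was thus Ttr, and the other 34 together were 3.98-fold lower.

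For counts, log2(FPKM + 1) ratios, B[a]P over control, were used, which understate the difference of low genes, and a gene was called lower at a ratio of -1 (2-fold) or less. Of 13261 genes that reached 1 FPKM in at least 1 library, 69 (0.520%) were called lower and 20 (0.151%) higher. Of the 35 genes, 31 reached 1 FPKM in either library, 16 of them in the control library alone, and 24 were called lower and 0 higher. By the plain ratio, 25 of the 31 were at least 2-fold lower, against 1.04% of the 13261 genes, and 12 were at least 20-fold lower, against 0.128% (17 genes). A raw value lower in the B[a]P library was found for 25.5% of the 13261 genes. The genes were listed with this contrast known, so these shares describe the list and nothing is read from them. The median log2 ratio of the 31 was -1.82, and that of all 13261 genes was 0.09 with an SD across genes of 0.25. With the genes under 1 FPKM in both libraries added, the median of all 35 was -1.62. Just inside the call lay Krt8 at a log2 ratio of -1.02 and Krt18 at -1.04, and just outside it Prlr at -0.99 and Calml4 at -0.86.

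**Figure D1:**
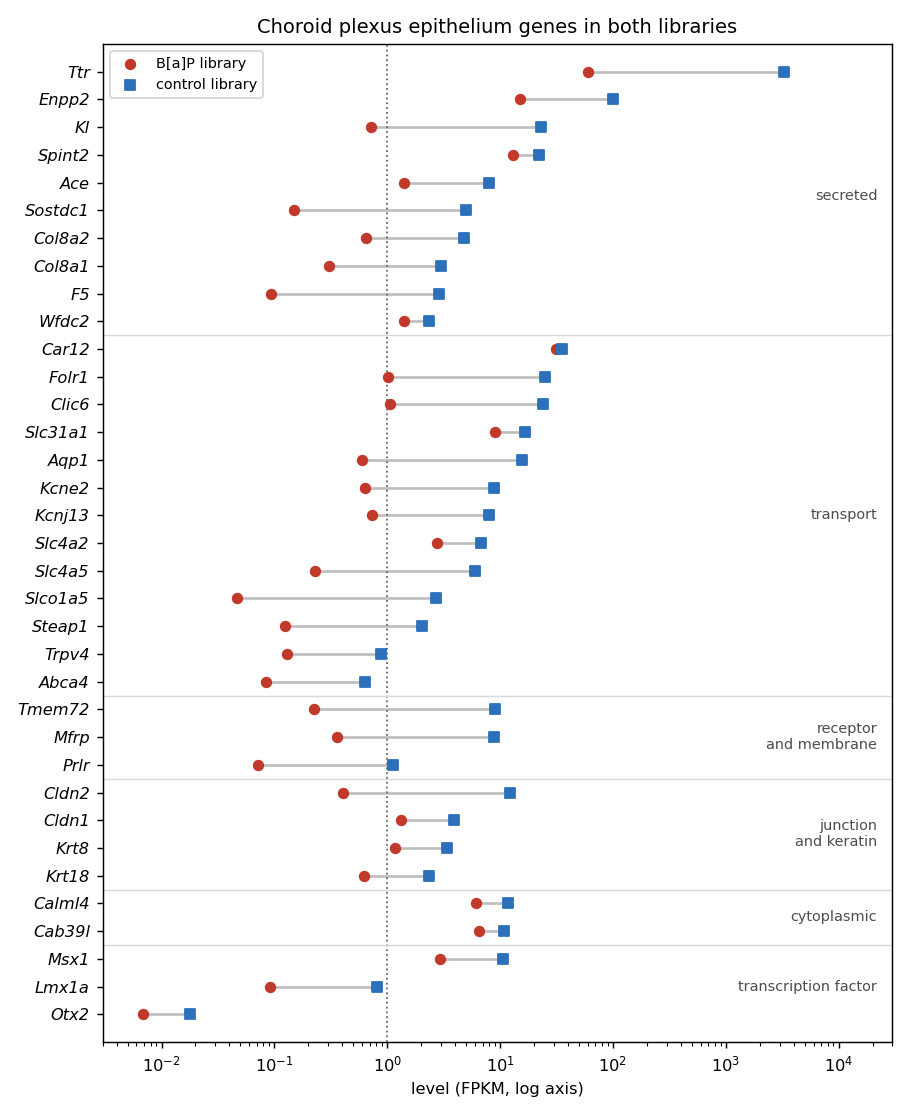
Level of each of the 35 genes in the B[a]P library (circles) and the control library (squares), in FPKM on a log axis, with genes grouped by role and ordered by control level. The dotted line is 1 FPKM. Every circle lies to the left of its square, by 54.6-fold for Ttr and by 1.14-fold for Car12.

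Of the 35 genes, 28 had a promoter in the RefSeq table of build GRCr8, taken as the 250 bases before the annotated start. The promoters of a few genes are shown because genes that were low together differed in how many CpG dinucleotides, the main sites of vertebrate DNA methylation, stand before their starts. Aqp1 and Mfrp stand for CpG-poor promoters of genes over 20-fold lower, Kl for a CpG-rich one of such a gene, and Msx1 for a CpG-rich one of a gene 3.62-fold lower. They lie on the plus strand of GRCr8, with Aqp1 at chr4:85812534-85812783, Mfrp at chr8:53342284-53342533, Kl at chr12:5325753-5326002 and Msx1 at chr14:77185552-77185801. Each is written 5′ to 3′ with its CpG dinucleotides in capitals.
Aqp1: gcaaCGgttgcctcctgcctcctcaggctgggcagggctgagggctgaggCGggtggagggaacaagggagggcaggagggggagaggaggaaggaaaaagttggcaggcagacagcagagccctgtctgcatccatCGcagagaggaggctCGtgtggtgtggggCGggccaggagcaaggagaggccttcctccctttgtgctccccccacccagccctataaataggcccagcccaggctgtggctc
Mfrp: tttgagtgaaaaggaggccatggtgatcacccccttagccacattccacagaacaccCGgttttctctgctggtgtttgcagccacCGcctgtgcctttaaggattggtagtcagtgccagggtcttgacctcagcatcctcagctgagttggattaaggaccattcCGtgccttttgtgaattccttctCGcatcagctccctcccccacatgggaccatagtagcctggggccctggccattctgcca
Kl: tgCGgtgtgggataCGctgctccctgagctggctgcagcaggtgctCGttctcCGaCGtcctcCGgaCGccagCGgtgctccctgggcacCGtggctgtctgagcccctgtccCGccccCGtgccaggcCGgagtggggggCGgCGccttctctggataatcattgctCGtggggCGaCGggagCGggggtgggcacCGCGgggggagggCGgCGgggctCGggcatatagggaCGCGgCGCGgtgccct
Msx1: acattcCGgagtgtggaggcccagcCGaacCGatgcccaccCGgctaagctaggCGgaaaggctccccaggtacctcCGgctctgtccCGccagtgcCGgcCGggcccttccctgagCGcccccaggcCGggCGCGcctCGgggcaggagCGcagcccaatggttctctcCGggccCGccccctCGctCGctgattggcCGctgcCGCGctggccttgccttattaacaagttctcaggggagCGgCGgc

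The Aqp1 window held 5 CpG and the Mfrp window 4, against 27 in Kl and 24 in Msx1. Among the 8 genes at least 20-fold lower that had a promoter, the median was 4 CpG, from 2 in F5 to 27 in Kl. Among the 11 genes under 5-fold lower it was 14, from 0 in Cab39l to 33 in Slc4a2. All 28 had a median of 9, and 9054 genes at 1 FPKM or more with a promoter had one of 17. Across the 28 genes the number of CpG and the fold had a Spearman rho of -0.27, a weak relation in which every gene shares the same 2 libraries, and across the 9054 genes (1 promoter each) rho was 0.04.

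Motifs were searched on both strands of the whole windows, from 250 bases before to 50 after the start. A gene was counted if any of its listed promoters matched, while the shares of all promoters count each promoter by itself. The counts and shares are thus not on the same footing. The CpG numbers above used the first listed promoter of each gene. The OTX core TAATCC, the core of sites bound by OTX homeodomain factors, was in Mfrp, Ace and Abca4, which is 3 of 28 genes, and in 7.17% of all 33469 promoters. The xenobiotic response element core GCGTG, which the aryl hydrocarbon receptor binds, was in 6 of 28 (Car12, Cldn1, Prlr, Slc4a2, Spint2 and Steap1) and in 29.7% of all promoters. None of those 6 was among the 8 genes at least 20-fold lower that had a promoter. The core itself holds a CpG, and those 8 had a median of 4 CpG, against 17 over the 9054 genes. Nothing is therefore read from its absence there. The TATA box TATAAA was in 6 of 28, Aqp1 and Slco1a5 among them, and in 14.2% of all promoters. The general homeodomain core TAATTA was in Abca4 alone of the 28 (5.36% of all promoters), and the forkhead core GTAAACA in Cab39l alone (3.78%). The motifs do not contain one another. A match is a run of letters and not a bound site.

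Secreted, shed and surface proteins made up 10 of the genes, and 8 of them were called lower. Ttr, which encodes transthyretin, the carrier of thyroid hormone and retinol-binding protein in cerebrospinal fluid, was at 60.5 against 3300.2 FPKM. It had the highest level of the 35 on the FPKM scale in both libraries and, 54.6-fold lower, the lowest log2 ratio of all 13261 genes (-5.75). Kl, which encodes klotho, a co-receptor for a fibroblast growth factor that is also shed into the fluid, was at 0.724 against 23.1 FPKM, 31.8-fold lower. Sostdc1, which encodes a secreted antagonist of BMP and Wnt signals, was at 0.148 against 4.96 FPKM. F5, which encodes coagulation factor V, was at 0.0942 against 2.87 FPKM. These 4 genes retained between 1.83% (Ttr) and 3.28% (F5) of the control level.

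Other secreted proteins differed less. Enpp2 encodes autotaxin, which makes the lipid mediator lysophosphatidic acid and is also made by oligodendrocytes. It was at 15.04 against 100.2 FPKM, 6.67-fold lower. The short-chain collagen genes Col8a1 and Col8a2, which encode the chains of type VIII collagen, stood close to each other. Col8a1 was at 0.304 against 3.01 FPKM, 9.89-fold lower. Col8a2 was at 0.646 against 4.74 FPKM, 7.34-fold lower. Ace, the angiotensin-converting enzyme gene, was at 1.419 against 8.003 FPKM, 5.64-fold lower. Spint2 and Wfdc2 were not called. Spint2, which encodes a membrane-bound inhibitor of serine proteases, was at 12.9 against 22.1 FPKM, and Wfdc2, a whey acidic protein family gene, at 1.41 against 2.32 FPKM.

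Transporters, channels and enzymes of ion movement made up 13 of the genes, of which 9 were called lower. Folr1 encodes the receptor that carries folate across the epithelium into the fluid. It was at 1.02 against 24.8 FPKM, 24.4-fold lower. Clic6, of the chloride intracellular channel family, was at 1.06 against 24.1 FPKM, 22.6-fold lower. Aqp1, the water channel gene of the ventricle-side membrane, was at 0.596 against 15.7 FPKM, 26.4-fold lower. The 3 genes thus lay within a narrow range of folds.

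Of the bicarbonate transporters, Slc4a5, a sodium-coupled cotransporter gene, was at 0.231 against 6.04 FPKM, 26.1-fold lower. Slc4a2, the anion exchanger gene of the blood side, was at 2.77 against 6.77 FPKM, 2.45-fold lower. Both were called, with folds that were far apart. The potassium channel genes Kcnj13 (Kir7.1) and Kcne2 (an accessory subunit) lay between them. Kcnj13 was at 0.731 against 7.93 FPKM, 10.9-fold lower, and Kcne2 at 0.629 against 8.90 FPKM, 14.1-fold lower.

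Slco1a5, an organic anion transporter gene, was at 0.0467 against 2.69 FPKM. Its 57.6-fold ratio was the highest of the list, but rests on a B[a]P value far below 1 FPKM. The neighbouring family gene Slco1a6 was listed at 0 in both libraries. Whether reads were shared among Slco1a genes in the authors' counting was not tested. Steap1, a metalloreductase family gene, was at 0.124 against 2.03 FPKM, 16.4-fold lower. Trpv4, an osmosensitive cation channel gene, was at 0.130 against 0.880 FPKM, and Abca4, a retinoid transporter gene, at 0.0839 against 0.633 FPKM. Both stayed under 1 FPKM in both libraries and could not be called.

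Car12, a membrane-bound carbonic anhydrase gene, was at 31.3 against 35.7 FPKM, 1.14-fold lower. It had the second-highest B[a]P level of the list, and 793 of the 13261 genes had a lower log2 ratio. Slc31a1, which encodes the copper importer CTR1, was at 8.997 against 16.7 FPKM, 1.85-fold lower, and was not called.

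Of the membrane proteins, Tmem72 was at 0.224 against 8.97 FPKM, 40.1-fold lower. Mfrp, a frizzled-related membrane protein gene, was at 0.362 against 8.83 FPKM, 24.4-fold lower. Prlr, the prolactin receptor gene, was at 0.0715 against 1.13 FPKM. By plain ratio it was 15.8-fold lower. Its log2 ratio of -0.99 missed the call, and with the median of all genes set to 0 it was -1.08.

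Junction and keratin genes split in size, although all 4 were called lower. Cldn2, the claudin gene that forms pores for cations and water in leaky epithelia, was at 0.403 against 12.3 FPKM, 30.5-fold lower. Cldn1, a sealing claudin gene, was at 1.32 against 3.87 FPKM, 2.93-fold lower. The keratins of simple epithelia, which pair into filaments, resembled Cldn1. Krt8 was at 1.16 against 3.39 FPKM, 2.92-fold lower, and Krt18 at 0.625 against 2.34 FPKM, 3.74-fold lower. Processed copies of both keratin genes are common in mammalian genomes, so their counts are less certain.

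Of the cytoplasmic proteins, Calml4, a calmodulin-like gene, was at 6.07 against 11.8 FPKM, and Cab39l, which encodes a scaffold that activates the kinase LKB1, at 6.47 against 10.9 FPKM. Neither was called.

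Among the transcription factors, the dorsal midline factor gene Msx1 was at 2.95 against 10.7 FPKM, 3.62-fold lower. Lmx1a, a LIM homeodomain gene of the dorsal midline, was at 0.0912 against 0.814 FPKM, 8.92-fold lower. Otx2, which encodes a homeodomain factor needed to form and maintain the choroid plexus, was listed at 0.00692 against 0.0180 FPKM. This defining marker was therefore near 0 in both libraries, including the control library with its high Ttr. Otx2 was also the only one of the 35 with a line in the noncoding RNA table (0.00469 against 0.0116 FPKM, on that table's own scale). Whether the line measures the coding transcript was not tested.

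**Figure D2:**
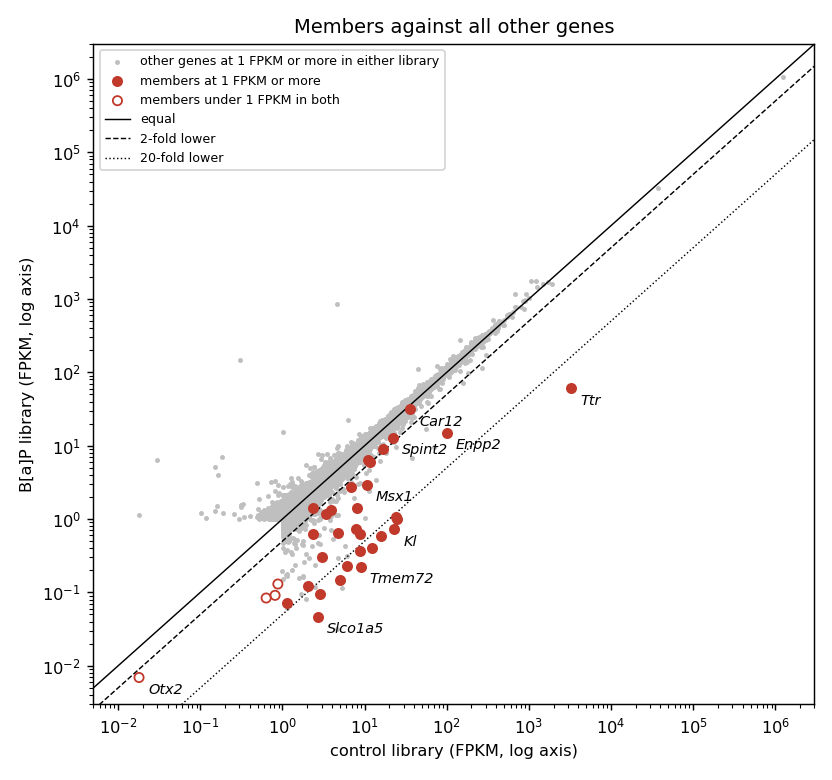
Level in the B[a]P library (y axis) against the control library (x axis), in FPKM on log axes, for the 35 genes (red, open where under 1 FPKM in both libraries) and the other genes that reached 1 FPKM in at least 1 library (grey). Lines mark equal values and 2-fold and 20-fold lower ones. Ttr, Kl, Tmem72 and Slco1a5 lie beyond the 20-fold line, while Car12, at 31.3 against 35.7 FPKM, lies close to the line of equal values.

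The folds of the 35 genes spread over a wide range, and both ends of it held genes of high and low control level. The 12 genes at least 20-fold lower (Ttr, Kl, Folr1, Clic6, Aqp1, Cldn2, Tmem72, Mfrp, Slc4a5, Sostdc1, F5 and Slco1a5) had control levels from 2.69 to 3300.2 FPKM. They retained from 1.74% to 4.42% of the control level. The 6 genes under 2-fold lower (Car12, Wfdc2, Cab39l, Spint2, Slc31a1 and Calml4) retained from 51.4% to 87.8%. All 6 were above 1 FPKM in the B[a]P library, whereas 9 of the 12 were below it. The B[a]P value is part of the fold, so this is a description of the values and not of a separate property.

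The genes next to the 35 on their chromosomes were read as a local comparison. The nearest protein-coding gene on each side was taken from the RefSeq order of GRCr8, leaving out the 35 themselves, and 60 such genes were matched by symbol or synonym. Of the 40 at 1 FPKM or more, 0 were called lower and 0 higher, and their log2 ratios ran from -0.34 to 0.51 with a median of 0.01. B4galt6, next to Ttr, stood level between the libraries at 20.6 FPKM each. Pds5b and Stard13, on either side of Kl, were at 14.9 against 12.4 FPKM and 1.34 against 1.53 FPKM. Anapc15, beside Folr1, was at 9.11 against 9.13 FPKM, and Rcan1, beside Clic6, at 19.4 against 19.3 FPKM. C1qtnf5, whose transcripts can overlap those of Mfrp, was at 16.2 against 17.5 FPKM. Neighbours under 1 FPKM in both libraries could not be called, and by plain ratio they were not level. Of 19 such genes above 0 in either library, 14 were lower in the B[a]P library, a count for which no share over all symbols was computed. At least 2-fold lower were 8 of the 19, against 22.1% of all 15998 symbols at such levels. The highest plain folds were those of Iapp, beside Slco1a5 (0.00821 against 0.112 FPKM), and Ace3, beside Ace (0.00446 against 0.0463 FPKM). After them came Selp, beside F5 (0.00691 against 0.0684 FPKM), and Ripply1, beside Cldn2 (0.0202 against 0.200 FPKM). These folds rest on B[a]P values far below 1 FPKM, and their counting error is unknown. Next to the 4 genes with the lowest ratios, Dsg2, a desmosomal cadherin gene beside Ttr, was at 0.0507 against 0.281 FPKM, Folr2 at 0.322 against 0.499 FPKM and Runx1 at 0.248 against 0.193 FPKM.

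**Figure D3:**
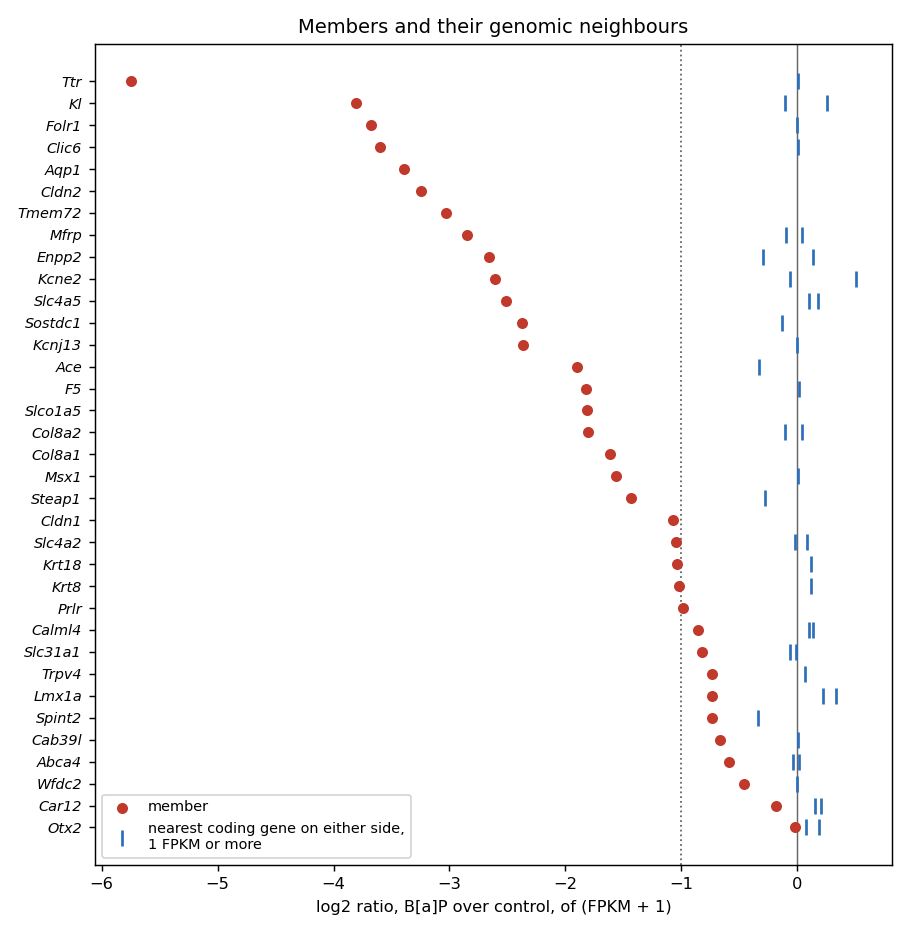
Log2 ratio of (FPKM + 1), B[a]P over control, of the 35 genes (circles, ordered by ratio) and of their nearest protein-coding neighbours at 1 FPKM or more (ticks, on the row of the gene they adjoin). The dotted line marks a 2-fold lower value. The neighbours lie between -0.34 and 0.51, while the circles reach -5.75.

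Relatives of the 35 genes in the same families were not called in either direction (0 of 32 at 1 FPKM or more), with a median log2 ratio of 0.10. The astrocyte water channel gene Aqp4 was at 80.7 against 64.03 FPKM, where Aqp1 was 26.4-fold lower. The myelin claudin gene Cldn11, the most abundant relative, was at 100.5 against 111.6 FPKM, and the endothelial Cldn5 at 54.5 against 59.1 FPKM. The bicarbonate transporter genes Slc4a4, of astrocytes, and Slc4a10, of neurons and choroid plexus, were at 22.2 against 17.4 FPKM and 37.4 against 35.2 FPKM. Kcnj10, the astrocyte potassium channel gene, was at 10.7 against 9.55 FPKM. The relatives with the lowest log2 ratios were the carbonic anhydrase genes Car14 (3.25 against 6.92 FPKM, -0.90) and Car2 (58.7 against 79.8 FPKM, -0.44).

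Other choroid plexus genes were read from a separate list of 42 symbols, of which 40 were found and 34 reached 1 FPKM. Of these, 7 were called lower and 0 higher, and the list's median log2 ratio was -0.29. Igfbp2, whose product binds insulin-like growth factors, was at 9.58 against 71.01 FPKM. Prr32 was at 0.432 against 5.83 FPKM, and the sulfate transporter gene Slc13a4, also of the meninges, at 2.43 against 11.3 FPKM. These 3 had the lowest log2(FPKM + 1) ratios of the list. Cox8b, a cytochrome oxidase subunit gene, was at 0.536 against 4.12 FPKM, the lactate transporter gene Slc16a8 at 0.261 against 1.85 FPKM, Cdr2 at 3.06 against 8.85 FPKM and Vat1l at 9.68 against 24.0 FPKM. The other 27 were not called, including Slc22a17, the most abundant (173.6 against 182.8 FPKM), and many of them are also expressed by other brain cells.

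The remaining ion transport genes of fluid secretion are shared with neurons and glia, and 0 of 27 were called. Their median log2 ratio was 0.07. Atp1b1, a subunit gene of the sodium pump and the most abundant of them, was at 521.8 against 497.8 FPKM. Car14 and the sodium pump regulator gene Fxyd1 (15.6 against 26.9 FPKM) had the lowest log2 ratios.

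Markers of other cells that adjoin or supply the choroid plexus were lower in part. Of 16 meningeal and stromal fibroblast markers at 1 FPKM or more, 3 were called lower, the median log2 ratio was -0.35, and the 23 listed summed to 226.2 against 382.4 FPKM. Igf2, which choroid plexus epithelium also makes, was at 3.37 against 13.8 FPKM, Fmod, a matrix proteoglycan gene, at 1.10 against 3.95 FPKM and Mgp, the matrix Gla protein gene, at 4.70 against 11.2 FPKM. Ptgds, the most abundant, was at 173.5 against 299.4 FPKM, and most of the difference between the 2 sums was Ptgds. In all, 14 of the 16 lay below the median log2 ratio of all genes, among them Col1a1 (1.67 against 2.56 FPKM) and Col3a1 (1.84 against 2.71 FPKM), which encode fibrillar collagen chains, Islr (2.62 against 4.51 FPKM) and the proteoglycan gene Dcn (7.72 against 9.44 FPKM). Lum, another proteoglycan gene, was at 2.05 against 2.01 FPKM, and Crabp2 and Ogn were listed at 0 in both libraries.

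Of 18 endothelial and pericyte markers, 1 was called lower, with a list median of -0.05. It was Plvap, the gene of the diaphragms of fenestrated capillaries such as those of the choroid plexus, at 0.334 against 1.92 FPKM. The list summed to 181.9 against 179.7 FPKM, and the blood-brain barrier gene Cldn5 is given above. Of 13 ependymal and motile cilia genes, 0 were called and the median was -0.22. The list summed to 43.6 against 51.2 FPKM. Foxj1, the master gene of motile cilia, had the lowest log2 ratio (1.94 against 4.77 FPKM, -0.97), followed by the radial spoke gene Rsph1 (1.06 against 2.10 FPKM), and Rarres2 was the most abundant at 12.3 against 13.2 FPKM. Of 12 markers of neighbouring brain regions 1 was called, the pituitary and hypothalamic hormone precursor gene Pomc (1.92 against 7.50 FPKM), with a list median of 0.03 and sums of 74.3 against 80.4 FPKM. The most abundant of them, the striatal gene Ppp1r1b, was at 21.9 against 23.7 FPKM. How far these other cells take part in the difference of the 35 genes was not tested.

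Neurons, glia and blood showed no called gene. Hippocampal and general neuron markers had a median of 0.18 over 16 genes and sums of 1561.8 against 1355.8 FPKM, with the glutamate transporter gene Slc17a7 the most abundant at 398.8 against 359.8 FPKM and the largest differences in the dendritic gene Map2 (151.1 against 110.7 FPKM) and the dentate granule cell gene Prox1 (10.5 against 8.15 FPKM). The labelled tissue was thus marked in both libraries. Astrocyte markers (10 genes) had a median of 0.18. Their largest differences were in Slc1a2 (290.8 against 219.4 FPKM) and Gfap (223.8 against 172.1 FPKM), and Glul, the glutamine synthetase gene, was the most abundant at 461.6 against 415.6 FPKM. Oligodendrocyte lineage markers (12 genes) had a median of -0.17, with the largest differences in Mal (104.6 against 143.8 FPKM) and Olig2 (7.799 against 10.3 FPKM) and the most abundant, the myelin gene Mbp, at 732.6 against 860.9 FPKM. These lists lay on opposite sides of the median of all genes. Microglia and macrophage markers (9 genes) had a median of 0.10, with C1qc at 17.5 against 25.1 FPKM, Aif1 at 6.57 against 5.26 FPKM and C1qa, the most abundant, at 44.1 against 46.8 FPKM. Blood cell markers (6 genes) had a median of -0.07, with the neutrophil gene S100a9 at 0.513 against 1.49 FPKM and the globin gene Hbb, the most abundant, at 140.2 against 177.5 FPKM.

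**Figure D4:**
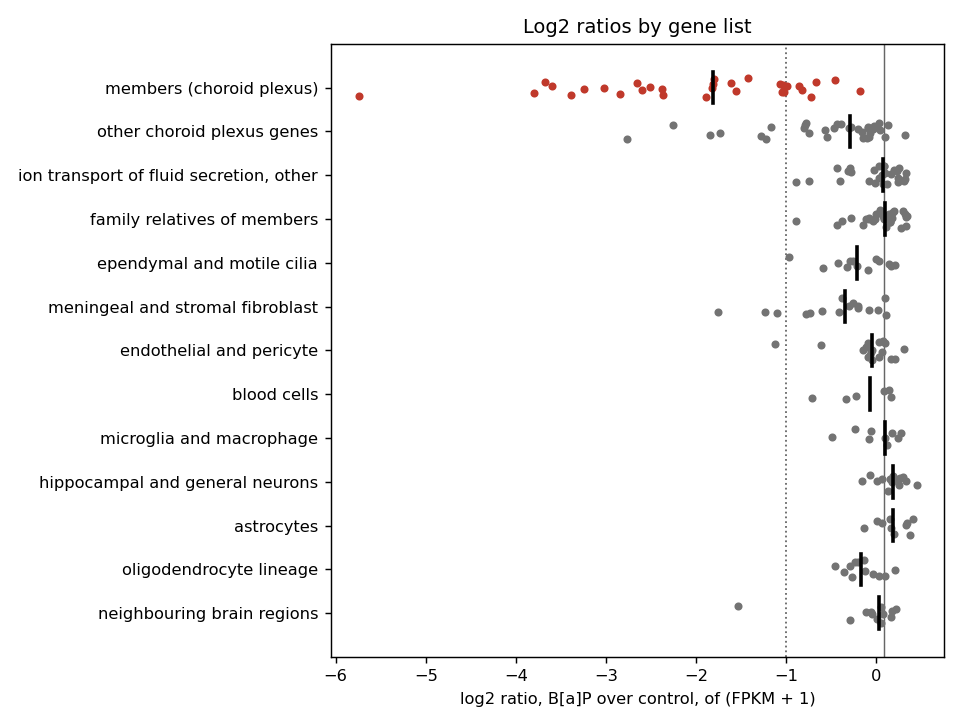
Log2 ratio of (FPKM + 1), B[a]P over control, of each gene at 1 FPKM or more (points) in the 35 choroid plexus genes (red) and in the other gene lists (grey), with the list's median as a black bar. The dotted line marks a 2-fold lower value and the thin line the median of all genes, 0.09. The 31 choroid plexus genes shown reach -5.75, the other choroid plexus genes -2.77 and the fibroblast markers -1.76. The lists of neurons and astrocytes, which have the highest minima, reach down to -0.16.

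The small RNA libraries gave another readout of the same labelled tissue and arms. Their labels do not say that the same rats were used, and do not give the weeks of gavage. Levels are in RPM, reads scaled to the library total, a unit inferred from the values. All 765 miRNAs with a value summed to 469185 against 371285 RPM, so the sums were not equal. Of 26 miRNAs of choroid plexus and other epithelia, 12 reached 10 RPM in either library. Of these 12, 11 were called at least 2-fold higher in the B[a]P library, against 3.92% of all 332 miRNAs at that level. In all, 13 of the 332 were called higher, these 11 included. The miRNAs were listed with earlier results of these data known, so these shares describe the list and nothing is read from them. Both arms of miR-204, miR-34b and miR-34c are among the 11, so the 11 are not separate members. Some also share a host gene, as miR-1298, miR-448 and miR-1912 do in Htr2c. Htr2c was at 19.5 against 29.0 FPKM, and Trpm3, the host gene of miR-204, at 5.91 against 6.97 FPKM. How the miRNAs relate to their host genes was not tested. The direction of the 11 miRNAs is opposite to that of the 35 genes. The most abundant of them are shown with the seed, bases 2 to 8, in capitals.
miR-204-5p: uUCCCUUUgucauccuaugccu
miR-1298: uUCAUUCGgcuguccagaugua
miR-34c-5p: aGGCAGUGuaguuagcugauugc

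miR-204-5p, an abundant miRNA of the choroid plexus, was at 2952 against 428 RPM, miR-1298 at 3664 against 197 RPM, and miR-34c-5p, of ciliated and choroid epithelium, at 1980 against 473 RPM. The median log2 ratio of all 332 miRNAs was 0.36, and relative to it these miRNAs were at 2.42, 3.85 and 1.70. The seeds of the 3 differ. A further called miRNA, miR-448-3p, was at 240.5 against 12.5 RPM. The exception among the 12 was miR-182, at 19.4 against 16.0 RPM. Whether the libraries of the 2 assays came from the same tissue pieces was not tested.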

How the data were processed

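RNA-seq and miRNA-seq libraries of rat hippocampus were compared, 1 library per arm and assay. RRBS libraries were not used, since no annotation of their build was at hand. The deposited messenger RNA and noncoding RNA tables hold 1 value per symbol and library, taken as FPKM from the values, since no label or header names the unit. The deposited miRNA tables hold RPM, also inferred. Per the submitters' processing notes, bcl2fastq and the builds rn6 and rn5 were used, with no role given. The sources used here do not give the aligner, counter, annotation or strand setting. The total depth is unknown, so no counting interval is given. Steps of low values gave a depth ratio, control over B[a]P, of 1.06.

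The 35 genes and all lists were chosen with earlier results of these data known. Ratios were computed with Python 3.11.15, numpy 2.4.6 and pandas 2.3.3 as log2(value + 1), over genes at 1 FPKM or miRNAs at 10 RPM in either library. Calls were made at an absolute ratio of 1, with no p-value. Recovery of known ratios was tested on data simulated from genes of high control level only, above that of most of the 35. Recovery at low levels was not tested. All 35 genes are named, and of other lists those called, or otherwise those with the largest differences, and the most abundant. A few others were named after their values were seen, as relatives or markers. Of 26 listed miRNAs, 24 were found. The limit for naming a called miRNA, planned in reads, was applied as 100 RPM because reads were not recovered. Names, gene order, promoters and miRNA sequences came from RefSeq tables of GRCr8. Alternatives were other pseudocounts, other floors and centring on the median.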

Additional observations from a re-analysis of the deposited data

How the results depend on the processing

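No paired analysis was possible because each arm had 1 library per assay. A pseudocount or a floor cannot turn the direction of a gene, so only the size and number of calls were compared. With a floor of 5 FPKM, 20 of the 35 choroid plexus genes had a value. The count called lower, 24, was 13 with a pseudocount of 5 and 15 with a floor of 5. The median log2 ratio over the 31 genes, -1.82, was -2.94 with a pseudocount of 0.1, -0.79 with one of 5, -2.56 with the floor of 5 and -3.44 with no pseudocount, an alternative chosen after seeing the data. Over all genes the count of 69 was 127 with a pseudocount of 0.1, 24 with one of 5, 36 with the floor of 5 and 138 with no pseudocount.

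With a pseudocount of 5, the other choroid plexus genes called were 2 and the fibroblast markers 1, and the endothelial markers and neighbouring region markers 0 each. The floor of 5 also left 0 endothelial markers. With a pseudocount of 0.1, 1 each of the ion transport genes, the family relatives, the ependymal genes and the blood markers was called. So were 2 of the endothelial markers. Some lists share genes, and the ion transport gene and the family relative were the same gene, Car14. Centring on the median called 1 ependymal gene. The calls of genomic neighbours (0) and of miRNAs (11) kept within 1.5 times under every alternative run. The depth is unknown, so the counting error of the genes under 1 FPKM could not be given.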

Other observations

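Of the 69 genes called lower, 45 were not among the 35 choroid plexus genes. The following examples had low log2 ratios and stood in no list above, and they were chosen after their values were seen. Scgb1c1, a secretoglobin gene, was at 1.04 (B[a]P) against 10.1 FPKM (control). Mdk, which encodes the growth factor midkine, was at 6.72 against 37.9 FPKM. Glycam1, a mucin-like gene, was at 0.122 against 2.51 FPKM.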
